A study of Mus musculus with 42 samples.

Results

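Cytochrome P450 genes encode haem-containing monooxygenases, and their levels were followed here in mouse pluripotent cells driven toward hepatocytes and in primary hepatocytes. Members were all genes on the array whose symbol is Cyp, a number, a letter and a number, plus Cyp51. This gave 82 genes, measured by 124 of the 45281 probes, among 19057 genes with a single symbol. Where several probes shared a gene, the one with the highest mean signal stood for it. Of the 82 members, 29 were detected (a detection p-value under 0.01 against the negative controls of the same array) on at least 2 of the 42 arrays and entered the tests, beside 10825 tested genes in all. The 29 were kept because they were bright somewhere, so they do not stand for the whole family.

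The study profiled total RNA on Illumina bead arrays, 1 array per sample, in 20 groups. Embryonic stem (ES) cells and 2 lots of germline cell-derived pluripotent stem cells (GPSC-A from Lot A, GPSC-B from Lot B) were taken untreated (day 0) and after 2, 7, 14, 21 and 28 days as embryoid bodies in a cocktail meant to induce hepatic fate, with 2 arrays per line and day. Primary hepatocytes from liver at embryonic day 16 (E16) and postnatal day 1 (PN1) were given 3 arrays each. The labels name no genotype, strain, sex or added agent beyond the cocktail, of a composition not given in the sources used here, and they do not say whether replicates came from separate cultures, animals or pools. The p-values below therefore rest on the scatter among these arrays alone, and that scatter may be technical.

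P450 enzymes insert an oxygen atom into a substrate, taking electrons from NADPH through the reductase Por in the endoplasmic reticulum or through adrenodoxin in mitochondria. Liver uses families 1 to 3 mainly on drugs, toxins and steroids, family 4 on fatty acids and leukotrienes, and a few single enzymes on bile acids, sterols and retinoic acid. In the mouse many liver members are low before birth and are switched on by nuclear receptors and hepatocyte transcription factors as the liver matures.

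Promoters of 62 of the 82 members were matched in a RefSeq table of build GRCm38.p6. Those of 5 members on which the results turn are shown for the 150 bases before the gene start, on the strand of the gene, with a motif in capitals. The capitals mark a direct repeat of the kind bound by retinoic acid receptors in Cyp26a1 (chr19:37697658-37697807, plus strand, first base 32 before the start), a sterol element in Cyp51 (chr5:4104698-4104847, minus strand, 89 before the start), and a site of the HNF4 type in Cyp2c70 (chr19:40187287-40187436, minus strand, 64 before), Cyp3a11 (chr5:145879855-145880004, minus strand, 109 before) and Cyp8b1 (chr9:121916306-121916455, minus strand, 67 before).
Cyp26a1: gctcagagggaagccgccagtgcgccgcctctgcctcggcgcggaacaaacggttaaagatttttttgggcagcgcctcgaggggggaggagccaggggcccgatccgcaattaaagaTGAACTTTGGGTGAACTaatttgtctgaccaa
Cyp51: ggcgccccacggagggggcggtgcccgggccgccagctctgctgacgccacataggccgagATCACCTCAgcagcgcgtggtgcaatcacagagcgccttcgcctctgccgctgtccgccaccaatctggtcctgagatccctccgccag
Cyp2c70: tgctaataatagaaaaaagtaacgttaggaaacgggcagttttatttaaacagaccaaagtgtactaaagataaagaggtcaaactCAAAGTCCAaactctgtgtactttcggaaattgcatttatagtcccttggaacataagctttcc
Cyp3a11: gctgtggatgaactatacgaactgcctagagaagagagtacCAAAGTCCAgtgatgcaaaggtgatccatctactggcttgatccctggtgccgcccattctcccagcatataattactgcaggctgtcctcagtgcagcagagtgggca
Cyp8b1: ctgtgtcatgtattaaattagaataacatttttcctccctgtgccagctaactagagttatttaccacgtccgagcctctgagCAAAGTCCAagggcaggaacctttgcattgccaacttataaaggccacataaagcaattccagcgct

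The motifs were chosen after these promoters had been read, and a match is a run of letters rather than a measured site. Searched on both strands of 32851 promoters of 300 bases, the repeat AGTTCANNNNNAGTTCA (which in Cyp26a1 lies on the opposite strand, as TGAACTNNNNNTGAACT) was found in 8 (0.0244%), ATCACCTCA in 66 (0.201%) and CAAAGTCCA in 156 (0.475%). Among the 62 members with a promoter, the repeat was present in Cyp26a1 and the sterol element in Cyp51 only. The motif CAAAGTCCA was present in 8 (12.9%), namely Cyp2c40, Cyp2c65, Cyp2c67, Cyp2c68, Cyp2c70, Cyp3a11, Cyp3a16 and Cyp8b1. The Cyp2c and Cyp3a members are close paralogs with related sequence.

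Most of the family was not seen by the chosen probes. Detection was counted on the highest-mean probe of each gene, and 28 members have several probes. The 29 of 82 members detected on at least 2 arrays stand beside 10825 of all 19057 genes. Of the 82 members, 45 were detected on no array and 8 on a single array. The 8 were Cyp2b10, Cyp2e1, Cyp2g1, Cyp2j11, Cyp39a1, Cyp3a44, Cyp4x1 and Cyp7a1. Among the 42 members with mainly xenobiotic substrates, 26 were undetected everywhere, including Cyp1a1, Cyp1a2 and Cyp1b1, which oxidise polycyclic aromatic compounds and respond to the dioxin receptor, and Cyp2b9, Cyp2b13, Cyp2c29 and Cyp2c37. The 21 members acting mainly on fatty acids had 10 undetected, among them 6 Cyp2j genes. All 3 vitamin D hydroxylases (Cyp24a1, Cyp27b1 and Cyp2r1) were undetected, as were Cyp11b1, Cyp17a1 and Cyp21a1 of steroid hormone synthesis, the brain cholesterol hydroxylase Cyp46a1, the retinoic acid hydroxylase Cyp26b1 and the orphan Cyp20a1. Probes of close paralogs may share transcripts, and lack of detection here bounds a signal rather than showing that a transcript was absent.

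The number of members detected set the E16 preparation apart. Cultures showed 6 to 12 members per array over all lines and days, E16 hepatocytes 17 to 19, and PN1 hepatocytes 8 to 10. E16 thus lay above every culture and PN1 array. The PN1 arrays also detected the fewest probes of all kinds, 8427 to 9287 against 9882 to 11539 in E16 and 9873 to 15123 in cultures, and their lowest detected signals were the highest (6.98 to 7.33 on the normalised log2 scale, against 6.18 to 6.74 in E16 and 5.43 to 6.75 in cultures). Median raw signals were 110 to 115 in E16 and 109 to 112 in PN1, all below the 116 to 158 of the cultures. Of the 29 tested members, 8 were detected only on hepatocyte arrays, 9 only on culture arrays and 12 on both.

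**Figure D1:**
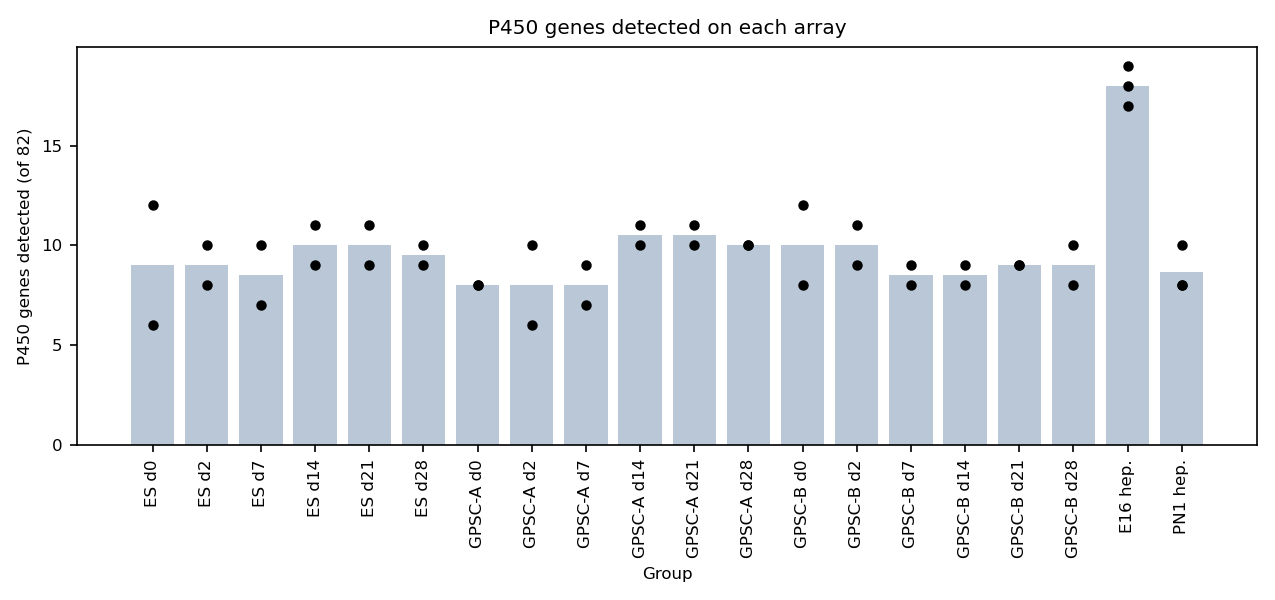
P450 genes detected on each array (points, of 82 members) with the mean of each group (bars), for the 18 culture groups of 2 arrays and both hepatocyte groups of 3. The E16 arrays, with 17 to 19 members, lie above all others, which hold 6 to 12.

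**Figure D2:**
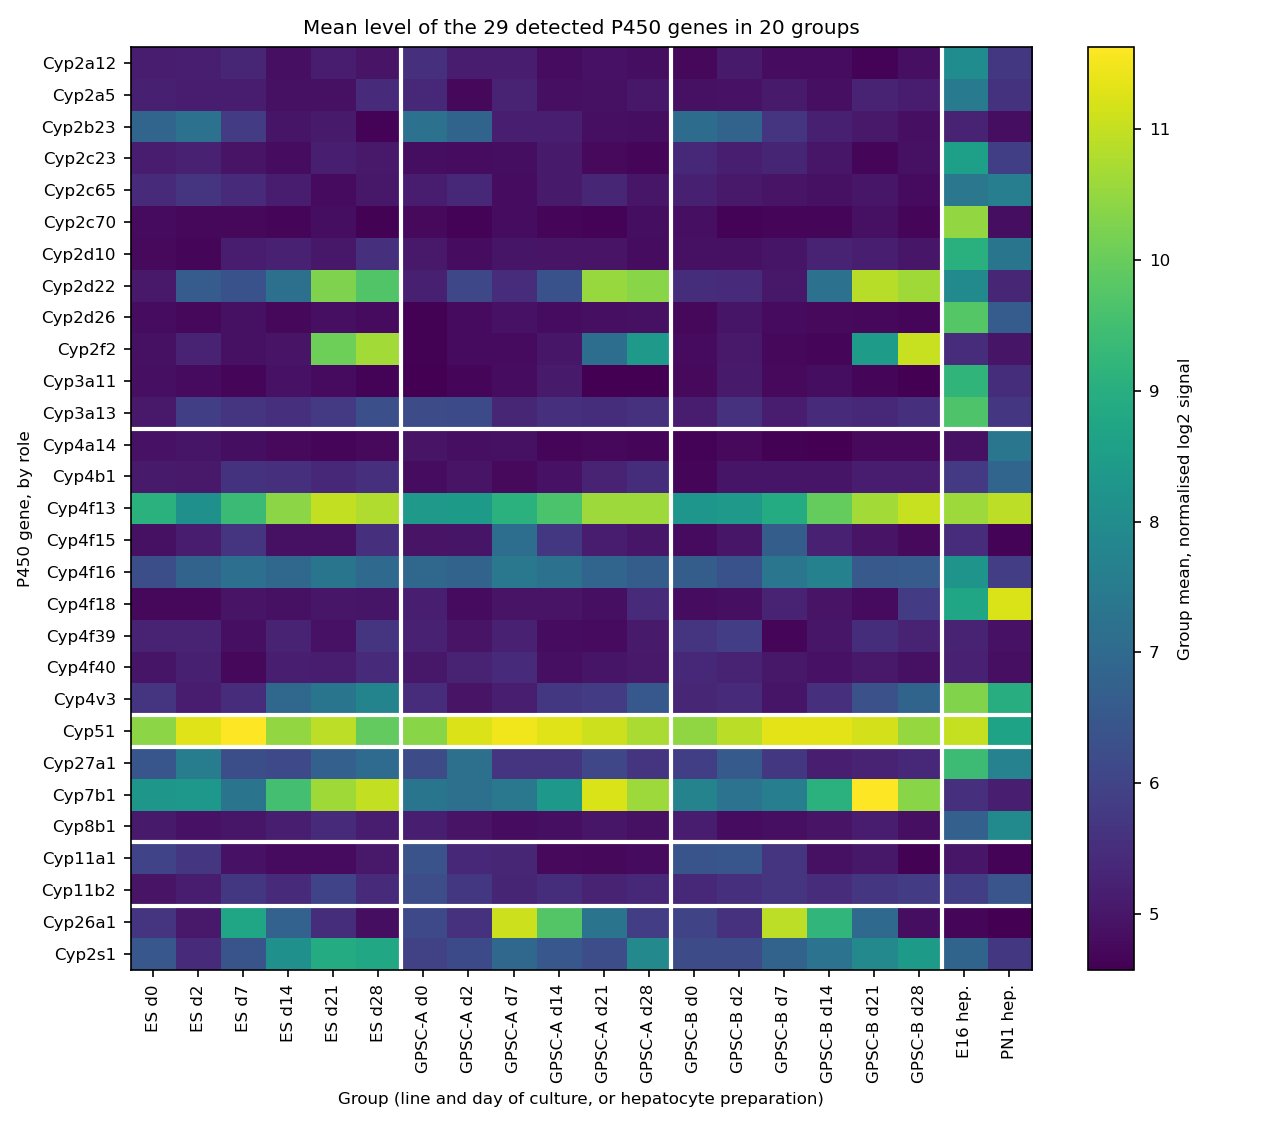
Mean normalised log2 signal of the 29 tested P450 genes (rows, by role from xenobiotic and fatty acid enzymes down to sterol, bile acid, steroid hormone and retinoid enzymes) in the 20 groups (columns). Each row can be read along its length, while colours in different rows come from different probes and are not comparable; Cyp2d22, Cyp2f2 and Cyp7b1 are bright late in culture and a block of Cyp2 and Cyp3 genes is bright only in E16 hepatocytes.

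All levels below are normalised log2 signals of single arrays, and differences are fitted log2 differences ± the standard error (SE) from limma over all 42 arrays, with Benjamini-Hochberg adjustment over the 10825 genes. A gene was called at an adjusted p under 0.05 and at least a 2-fold difference. The SE pools the spread of all 20 groups. For a gene undetected in most groups it can understate the spread where the gene is detected, and its p-value with it. Where a gene was undetected on all arrays of a group, its fold is a lower bound, written as at least N-fold. In bulk RNA fewer cells of a type and less RNA per cell cannot be told apart.

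The labels of the groups were set against marker genes of cell types. Of 10 hepatocyte markers, the 8 tested were all lower in PN1 than in E16 (median difference -2.74), and their summed signal was 202195 to 227907 in E16, 39039 to 42069 in PN1, 3008 to 5768 in day 28 cultures and 351 to 732 at day 0. Trf, Serpina1b, Ahsg, Apoa1 and Apoa2 were detected on all E16, PN1 and day 28 arrays. Their group means were 14.31 to 15.92 in E16, 11.61 to 13.65 in PN1 and 7.88 to 10.43 at day 28. Alb, encoding albumin, was dimmer, at 7.67 in E16 and undetected in PN1 and in every culture. Fgb and Fabp1 were undetected in both hepatocyte preparations, so their probes tell nothing of a difference between them. The summed erythroid marker signal was 138132 to 146197 in E16 and 148369 to 149033 in PN1, against 192 to 221 at day 28. Neutrophil granule genes, a list chosen after values had been seen, summed to 134075 to 140153 in E16 and 250385 to 266994 in PN1, with 6 of 10 higher in PN1. Macrophage markers summed to 24245 to 28159 in E16 and 63907 to 73505 in PN1, with 0 of 5 called (limma). That sum mostly followed its brightest gene, Lyz2, at 14.00 in E16 and 15.75 in PN1. In the same order C1qb was at 12.37 and 12.47, and C1qc at 11.93 and 12.26. Both hepatocyte preparations thus showed high signal of blood cell markers, and PN1 showed less of the hepatocyte markers.

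The first question was which P450 genes changed over the days of culture, taking the mean of the 3 lines (6 arrays a day). On day 2, 0 members passed (limma, 5 with an unadjusted p under 0.05), where 1.5% of all tested genes rose and 3.94% fell. By day 7, 3 members rose and 1 fell (6.66% and 6.64% of all genes). By day 14, 5 rose and 2 fell (12.6% and 10.8%). By day 21, 6 rose and 2 fell (16.1% and 14.7%), and by day 28 again 6 rose and 2 fell (17.1% and 16%). Read against those shares of all genes, 3 to 6 rises among 29 tested members were near the background and 1 or 2 falls were below it. Counts this small say little about the family. The median member moved by 0.01 at day 28 and the median of all tested genes by 0.03.

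Cyp26a1, which clears retinoic acid by hydroxylation, gave the largest rise by day 7 among the members. At day 7 the ES arrays read 9.19 and 8.31, those of GPSC-A 11.09 on both and those of GPSC-B 10.82 and 11.04. Before treatment they read 6.20 and 5.08 for ES, 6.55 and 5.70 for GPSC-A, and 6.69 and 5.37 for GPSC-B, the second of each pair being undetected. Every day 7 array lay above every day 0 array, a rise of 4.33 ± 0.23 (20.1-fold, adjusted p = 1.38e-14). A further probe of Cyp26a1 rose by 4.57.

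The rise of Cyp26a1 was transient. On day 14 ES stood at 6.64 and 6.92, GPSC-A at 9.96 and 9.50, and GPSC-B at 9.34 and 9.10, a difference from day 0 of 2.64 ± 0.23 (adjusted p = 1.57e-10) in which the lowest ES value lay within the day 0 range. On day 21 Cyp26a1 was undetected in ES (5.45 and 5.52), while GPSC-A held 7.72 and 6.85 and GPSC-B 6.95 and 7.02. By day 28 a single array, the second of GPSC-A, still detected it at 5.99. The hepatocyte preparations did not detect Cyp26a1.

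Both GPSC lines lay above ES for Cyp26a1 at day 7 and day 14. The change from day 0 in GPSC-A exceeded that in ES by 1.85 ± 0.56 at day 7 (adjusted p = 0.0683) and by 2.46 ± 0.56 at day 14 (adjusted p = 0.0116). The same difference for GPSC-B was 1.79 at day 7 (adjusted p = 0.125) and 2.04 at day 14 (adjusted p = 0.0836). Only the day 14 difference of GPSC-A passed, 1 of 29 members where 1.01% of all tested genes were higher and 1.37% lower in that comparison. These day 2 to day 21 line differences were added after the values had been seen. GPSC-B and GPSC-A differed at day 14 by -0.42 (adjusted p = 1).

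Genes of the retinoid pathway were listed beside Cyp26a1. Of 16 listed genes 11 were tested. At day 7, 1 rose (Rdh11, a retinal reductase, by 1.01) and 1 fell (Rarg, a retinoic acid receptor, at -1.42). At day 14, 5 rose and 1 fell. Rarb, a receptor gene that retinoic acid itself induces, rose by 3.70 ± 0.28 at day 14 and gave -0.08 at day 7. Aldh1a2, which makes retinoic acid and was undetected at day 0, rose at least 2.6-fold, the binding protein gene Crabp2 by 1.62 ± 0.23 and the reductase gene Dhrs3 by 1.06 ± 0.21 on the log2 scale at day 14. At day 7 Aldh1a2, Crabp2 and Dhrs3 were at 0.62, 0.33 and -0.36, with no call. Stra6, the retinol uptake receptor, gave 0.87 ± 0.24 at day 14, under the 2-fold threshold, and Rdh10 was not tested.

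Cyp2s1, an enzyme of epithelia outside the liver that can also act on retinoids, rose later. Day 0 levels were 5.85 to 6.67 (median 6.18), and day 28 levels 7.72 to 9.14 (median 8.41). The 2 days did not overlap, with a rise of 2.16 ± 0.30 (adjusted p = 3.83e-07). Lines differed on the way: at day 21 Cyp2s1 read 8.76 and 9.05 on the ES arrays, 6.37 and 6.09 on those of GPSC-A, and 7.91 and 7.86 on those of GPSC-B. The day 14 rise was 1.08 (adjusted p = 0.00342) and 0.94, under 2-fold, without the second GPSC-A array of that day.

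Cyp51, the lanosterol demethylase of cholesterol synthesis, was detected on all 42 arrays. Its levels at day 0 were 9.87 to 10.92 (median 10.36) and at day 7 11.31 to 11.75 (median 11.42). All day 7 values lay above all day 0 values, by 1.06 ± 0.19 (2.09-fold, adjusted p = 6.29e-05). The rise was 0.89 without the second ES array of day 0 and 0.96 without the first GPSC-B array of day 0, both under 2-fold. At day 28 Cyp51 was back at 9.73 to 10.82, a difference from day 0 of -0.01 ± 0.19. Around it, 8 of 18 listed sterol synthesis genes were tested and 2 rose at day 7, Nsdhl by 1.15 and Hsd17b7 by 1.13, both of which act after Cyp51. The epoxidase Sqle and the cyclase Lss, which act before it, gave 0.26 ± 0.16 and 0.69 ± 0.19.

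Cyp4f15, a fatty acid and leukotriene hydroxylase of the Cyp4f cluster, was the remaining member to rise by day 7. It was undetected on all day 0 arrays (4.66 to 5.03). At day 7 ES stood at 6.21 and 5.06 (undetected), GPSC-A at 7.16 and 7.08, and GPSC-B at 6.29 and 7.02. The 5 detected day 7 values lay above the day 0 values, and the group difference was 1.59 ± 0.19, at least 1.47-fold (adjusted p = 1.73e-07). On day 14 only the GPSC-A arrays detected it, at 5.77 and 5.68, and no array did at days 21 and 28.

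The late rises were led by Cyp2f2, Cyp2d22 and Cyp7b1. Cyp2f2, the naphthalene-activating P450 of mouse airway club cells and also of liver, was undetected on every array through day 14 (4.57 to 5.48). On day 21 the pairs of arrays read 9.70 and 10.42 for ES, 7.83 and 6.43 for GPSC-A, and 10.37 and 6.52 for GPSC-B. On day 28 ES read 10.73 and 10.55, GPSC-A 9.48 and 7.23, and GPSC-B 11.65 and 10.42. It was thus detected on all 12 arrays of the last 2 days with a wide spread between replicates in the GPSC lines, and GPSC-A held the lowest values of day 28.

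The fitted Cyp2f2 rise was 3.78 ± 0.40 by day 21 (at least 6.18-fold, adjusted p = 4.66e-09) and 5.24 ± 0.40 by day 28 (at least 17.1-fold, adjusted p = 5.64e-12). The day 21 rise became 3.13 without the first and 4.42 without the second GPSC-B array of that day. Cyp2f2 entered the tests through days 21 and 28 alone, and its SE pools arrays that did not detect it. Over the 3 lines its day 21 values had a standard deviation of 1.86. Neither hepatocyte preparation detected Cyp2f2 (5.21 to 5.66 in E16, 4.67 to 5.45 in PN1). Day 28 cultures were at least 11-fold above E16 and at least 7.23-fold above PN1. Of 8 measured club cell markers, 7 including the secretoglobin Scgb1a1 were undetected on all day 28 arrays, and the surfactant gene Sftpd was detected on all 6 (mean 6.94, against 5.17 at day 0). The summed signal of that list was 255 to 483 at day 28 and 213 to 259 at day 0.

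Cyp2d22, a drug-metabolising member of the Cyp2d cluster, was undetected on all day 0 arrays (4.91 to 5.67). Both ES arrays detected it on day 2 (6.21 and 7.02) and day 7 (6.11 and 6.57), as did 1 GPSC-A array on day 2 (6.17). The day 2 difference of the 3 lines was 0.79 ± 0.25, under 2-fold. Cyp2d22 was detected on all arrays of day 14 at 5.88 to 7.48, of day 21 at 9.90 to 11.05 and of day 28 at 9.53 to 10.73. From day 14 on, all its values lay above the day 0 range. The rise by day 21 was 5.31 ± 0.25 (at least 25-fold) and by day 28 4.99 ± 0.25 (at least 20-fold, adjusted p = 7.14e-16).

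Cyp7b1, which hydroxylates oxysterols in the alternative bile acid pathway and clears steroids outside the liver, was detected on all 36 culture arrays and on no hepatocyte array. Its levels were 7.17 to 8.42 (median 7.73) at day 0, 8.10 to 9.71 (median 9.08) at day 14, 10.59 to 11.82 (median 11.22) at day 21 and 9.91 to 11.13 (median 10.84) at day 28. Days 21 and 28 lay wholly above day 0. The differences were 1.20 ± 0.20 at day 14 (adjusted p = 1.1e-05), 3.38 ± 0.20 at day 21 (10.4-fold) and 2.87 ± 0.20 at day 28 (7.32-fold, adjusted p = 6.22e-13). Of 11 listed genes of bile acid handling 4 were tested, and 1 rose by day 28, Hsd3b7, which acts on the product of Cyp7b1, by 1.60 ± 0.15.

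Of the fatty acid hydroxylases, Cyp4f13 was detected on all 42 arrays. It rose from 8.14 to 9.36 (median 8.46) at day 0 to 10.57 to 11.09 (median 10.80) at day 28, with no overlap, by 2.23 ± 0.16 (adjusted p = 1.69e-12). The hepatocyte preparations stood at 10.23 to 10.79 in E16 and 10.78 to 11.09 in PN1. Day 28 minus E16 was 0.23 ± 0.20 and day 28 minus PN1 -0.12 ± 0.20, neither passing. With arrays scaled to a common median the difference from PN1 was 1.00 and passed the test (adjusted p = 0.00135, limma). Cyp4v3, a fatty acid hydroxylase of eye and liver, was near or below detection at day 0 (5.02 to 5.71) and at 6.23 to 7.91 (median 6.92) on day 28, highest in ES, a rise of 1.56 ± 0.22 (adjusted p = 6.26e-07). The day 21 rise of Cyp4v3 was 1.01 and fell under 2-fold, to 0.91 to 0.99, without any one of 5 arrays: the first of ES day 0, the second of ES day 21, the second of GPSC-A day 0, the second of GPSC-A day 21 or the first of GPSC-B day 0.

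The falling members were Cyp2b23 and Cyp11a1. Cyp2b23, of the drug-inducible Cyp2b group, was at 6.88 to 7.29 on all day 0 arrays and 6.72 to 7.49 on day 2. On day 28 it was undetected at 4.49 to 4.95. It fell by 1.5 on the log2 scale by day 7 (SE 0.22, adjusted p = 3.45e-06) and ended at day 28 at least 2.16-fold lower (fitted -2.26 ± 0.22, adjusted p = 6.27e-10). Cyp11a1, the mitochondrial side-chain cleavage enzyme that starts steroid hormone synthesis, was at 5.62 to 7.08 on day 0 and undetected from day 7 on. It was called from day 14, and its day 28 difference was -1.44, at least 1.26-fold lower (adjusted p = 5.51e-07). Another probe of Cyp11a1, detected on 3 arrays, gave 0.54 at day 28, and the call was lost when probes were averaged. Of 8 steroid hormone genes listed beside it 2 were tested, 1 of which rose by day 28 (Tspo, a mitochondrial outer membrane protein, by 1.05), and Star was not tested. Without background correction, and on the series matrix of the authors' processed values, the falls of Cyp11a1 at day 28 were under 2-fold (-0.60 and -0.68), as were those of Cyp2b23 at day 7 (-0.64 and -0.74), and Cyp2b23 at day 28 was at -0.97 without background correction. The same pair of settings took the day 7 rise of Cyp4f15 to 0.65 and 0.76, the day 14 rises of Cyp2d22 to 0.69 and 0.82 and of Cyp7b1 to 0.90 and 0.87, the day 21 rise of Cyp2s1 to 0.86 and 0.89 and the day 28 rise of Cyp4v3 to 0.68 and 0.79, each with an adjusted p still under 0.05 (limma).

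**Figure D3:**
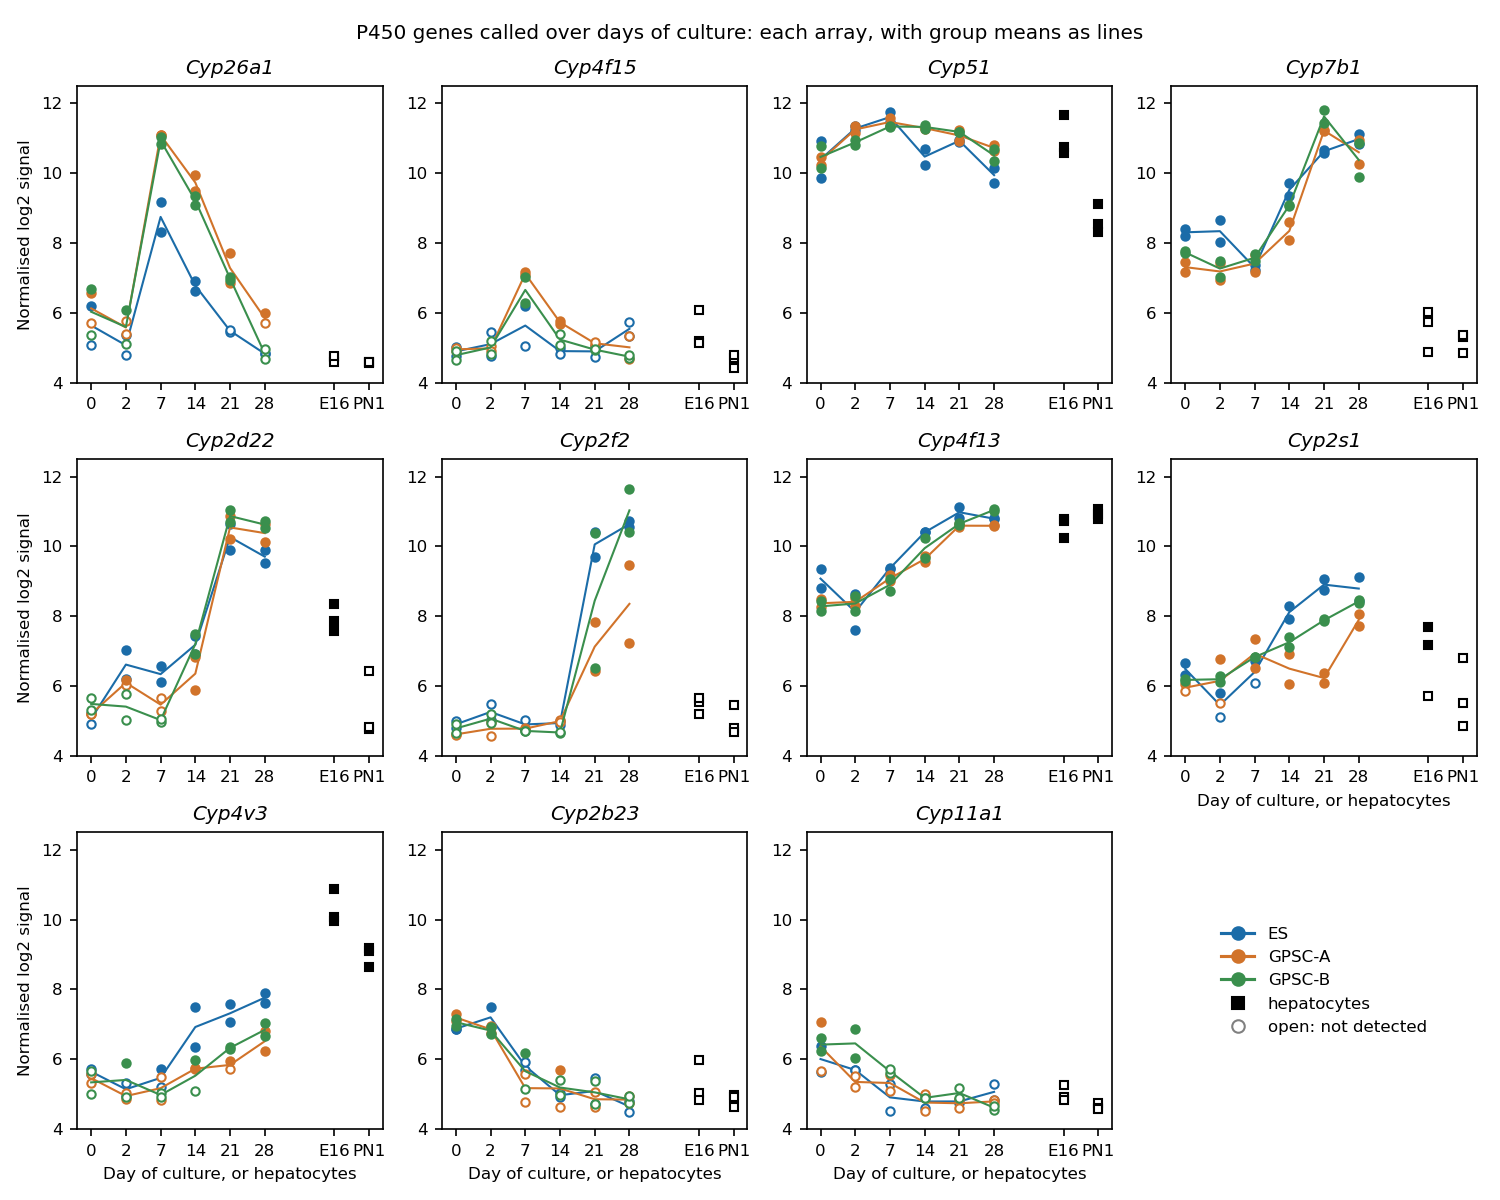
Normalised log2 signal of the 11 P450 genes called in culture, on each array by line and day (days drawn at equal spacing), with lines through group means and hepatocyte arrays as squares; open symbols were not detected. Cyp26a1 is highest at day 7, Cyp7b1, Cyp2d22, Cyp2f2 and Cyp4f13 are high at days 21 and 28, and Cyp2b23 and Cyp11a1 are undetected at day 28.

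Markers of other cell types moved over the same days. Of 9 tested fibroblast and stellate markers 7 rose by day 28, with a summed signal of 2939 to 5640 at day 0 and 19906 to 31189 at day 28. Of 8 tested hepatocyte markers 5 rose, and 6 of 7 pluripotency markers fell. Among 9 gut epithelium markers 8 were undetected on all day 28 arrays. Macrophage markers rose for 4 of 5, endothelial markers for 2 of 9 with 1 lower, visceral endoderm markers for 1 of 7 with 3 lower, and none of 7 erythroid markers was called (limma). Of 10 neutrophil granule genes 3 were higher at day 28, with a summed signal of 293 to 341 at day 0 and 7657 to 18668 at day 28. Most of that late sum was 1 gene, Lcn2, which went from 4.98 to 13.48, while the next brightest, Ltf, was at 8.35. Camp, Ctsg, Mpo, Ngp and S100a9 were undetected on all day 28 arrays. The macrophage sum went from 368 to 841 at day 0 to 321 to 13243 at day 28. Their part in the P450 changes was not tested.

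Regulators of P450 genes gave 5 rises and 2 falls among 13 tested of 20 listed by day 28. Among them the vitamin D receptor Vdr and the bile acid receptor Nr1h4, both undetected at day 0, rose at least 4.12-fold and at least 1.57-fold and the shared dimer partner Rxra by 1.86 on the log2 scale, while the xenobiotic receptor Nr1i3 fell by 1.10 on the log2 scale. Nr1i2, Ahr and Nr0b2 were not tested. The factor Hnf4a was detected on 2 of 6 day 28 arrays and gave 0.09 ± 0.24. Of the electron partners 5 of 13 were tested, without Por, Fdx1 and Fdxr, and none was called at day 28 (limma, Cyb5r3 at 0.86 ± 0.26 with an adjusted p of 0.00594 and under 2-fold).

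The lines were compared in how far they had changed by day 28. In each of the 3 comparisons of lines 0 members passed by limma, with 3, 3 and 1 at an unadjusted p under 0.05 for GPSC-A minus ES, GPSC-B minus ES and GPSC-B minus GPSC-A. Over all tested genes 3.67%, 1.68% and 0.0831% passed. A replicate block raised the first count from 0 to 1 through Cyp2d10, which no day 0 or day 28 culture array detected. A p that misses the threshold does not show that the lines acted alike.

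The second question was how fetal and newborn hepatocytes differ. From E16 to PN1, 14 members were lower and 4 higher, where 13.5% of all tested genes were lower and 10.4% higher. Of the 29 tested members 10 had entered through hepatocyte arrays (detected on at least 2 of these and fewer than 2 of the culture arrays), so the counts describe those members and not the family. Cyp2c70, Cyp3a11, Cyp2d26, Cyp2a12 and Cyp2a5 were detected on E16 arrays alone, and Cyp4a14 on PN1 arrays alone. They were tested because they are high there, so the direction of their calls largely followed from the filter. Their p-values are no further support. The median member was at -0.84 and the median of all genes at 0.00. Scaling arrays to a common median moved the median of all genes to -0.15, and all 18 calls kept their direction, with Cyp2s1 (-0.83), Cyp8b1 (0.55) and Cyp4b1 (0.36) under 2-fold. Without background correction these 3 and Cyp2a5 were under 2-fold, at -0.52, 0.70, 0.47 and -0.89. The fall of the hepatocyte markers and the higher detection limit of the PN1 arrays, given above, go with this comparison, and their part in it was not tested.

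Among the enzymes of drugs and steroids, 9 were lower in PN1. Cyp2c70, which makes muricholic bile acids in the mouse, was at 10.56, 10.26 and 10.64 in E16 and undetected at 4.95, 4.97 and 4.59 in PN1. The preparations were far apart, at least 10.1-fold (fitted -5.65 ± 0.18, adjusted p = 1.7e-19). Cyp3a11, the main drug-oxidising Cyp3a enzyme of adult mouse liver, was at 9.25, 8.45 and 9.84 in E16 and undetected in PN1 at 4.82, 5.43 and 6.23, at least 4.07-fold lower (-3.69 ± 0.29). Its relative Cyp3a13 was at 9.52, 9.57 and 9.94 in E16 and undetected in PN1 at 5.27, 6.03 and 5.75, at least 5.73-fold lower (-3.99 ± 0.35). These 3 genes showed no overlap between preparations.

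The Cyp2d, Cyp2c and Cyp2a members followed the same direction. Cyp2d26 was at 10.21, 9.14 and 9.97 in E16 and undetected in PN1 at 6.31, 6.32 and 7.23 (at least 6.13-fold lower). Cyp2d10 was at 9.35, 9.02 and 8.75 in E16 and remained detected on 2 of 3 PN1 arrays at 7.42, 7.08 and 7.45, a difference of -1.73 ± 0.26 (adjusted p = 6.49e-06). Cyp2d22 was at 7.87, 8.35 and 7.59 in E16 and undetected in PN1 at 6.43, 4.76 and 4.82 (at least 1.72-fold lower). Cyp2d10 is the member of this cluster that PN1 still showed. Cyp2c23, an epoxygenase of arachidonic acid, was at 8.80, 8.37 and 8.52 in E16 and undetected in PN1 (at least 2.65-fold lower). Cyp2a12, which hydroxylates steroids and bile acids, was at 7.91, 7.62 and 8.46 in E16, at least 1.79-fold above PN1. The coumarin hydroxylase gene Cyp2a5 was at 7.85, 7.19 and 7.51, at least 1.29-fold above PN1. Both were undetected on all PN1 arrays. Cyp2c65 was the exception among the hepatocyte Cyp2c genes, at 7.39, 7.88 and 6.86 in E16 and 7.89, 7.80 and 7.05 (the last undetected) in PN1, overlapping and not called (0.21 ± 0.26).

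Cyp27a1 and Cyp8b1, grouped here as bile acid enzymes, went in opposite directions. Cyp2c70 and Cyp2a12, given above among the enzymes of drugs and steroids, also act on bile acids and were lower in PN1. Cyp27a1, the mitochondrial sterol hydroxylase of the alternative pathway, was at 9.46, 9.31 and 9.49 in E16 and 7.56, 7.68 and 7.89 in PN1, lower without overlap (-1.71 ± 0.30, adjusted p = 4.81e-05). Cyp8b1, the sterol hydroxylase needed for cholic acid, was at 6.62 (undetected), 7.24 and 6.35 in E16 and 8.26, 7.80 and 7.73 in PN1. It was higher in PN1 without overlap (1.19 ± 0.21, adjusted p = 4.66e-05), and at 1.00, just under 2-fold, without the third E16 array. The rise of Cyp8b1 was also under 2-fold with median scaling (0.55), without background correction (0.70), on the series matrix (0.72) and with an offset of 50 (0.97). Of 4 tested genes of bile acid handling 3 were lower in PN1, the oxidase Acox2 at -4.37 ± 0.30, the ligase Slc27a5, undetected in PN1, at least 1.67-fold lower and Hsd3b7 at -1.31 ± 0.22.

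In sterol synthesis Cyp51 was at 10.74, 10.57 and 11.68 in E16 and 8.54, 8.31 and 9.13 in PN1. It was lower without overlap, at -2.34 ± 0.27 (adjusted p = 5.51e-08). Of the 8 tested genes around it 6 were lower, among them Lss, undetected in PN1 and at least 1.32-fold lower, Sqle at -1.58 ± 0.23 and Nsdhl at -1.52 ± 0.25. The median of that list was -1.46.

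Family 4 held 3 of the 4 rises. Cyp4f18, a leukotriene hydroxylase best known from mouse neutrophils, was at 8.81, 8.89 and 8.51 in E16 and 11.17, 11.36 and 11.17 in PN1. All PN1 values lay far above E16, by 2.50 ± 0.22 (5.64-fold, adjusted p = 2.85e-10), and a further probe rose by 3.30. In culture it was detected on 1 of 36 arrays. The neutrophil granule sums given above were also higher in PN1 than in E16. In culture that sum reached 6126 to 10094 at day 21, when 6 of its 10 genes and Cyp4f18 were undetected on all arrays. The part of neutrophils in the Cyp4f18 difference was not tested. Cyp4a14, a fatty acid hydroxylase induced by fasting through the receptor Ppara, was undetected in E16 at 4.81, 4.69 and 5.18 and at 7.79, 7.84 and 6.40 (the last undetected) in PN1, at least 1.72-fold higher (fitted 2.45 ± 0.28). Ppara itself was detected on 2 of 3 E16 arrays and no PN1 array, and was called lower, with no fold to give. Cyp4b1 was called at 1.10 but undetected on all 6 arrays, which leaves no fold to give, and it was 0.94 without the third PN1 array.

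Other members of family 4 were lower in PN1. Cyp4v3 was at 9.95, 10.08 and 10.89 in E16 and 9.18, 9.10 and 8.64 in PN1, lower without overlap (-1.33 ± 0.31, adjusted p = 0.00124). Cyp4f16 was at 8.20, 8.10 and 8.35 in E16 and undetected in PN1 at 6.40, 5.38 and 5.76 (at least 2.08-fold lower), but its other probes gave -1.48 and 1.05 and the call was lost when probes were averaged. Over other detected probes of the members called here, 9 of 10 had the direction of the chosen probe. The retinoid-linked Cyp2s1 was at 7.18, 7.69 and 5.71 (undetected) in E16 and 6.81, 5.51 and 4.85 (all undetected) in PN1. These overlapped, and the difference of -1.14 ± 0.42 (adjusted p = 0.0379) was lost without the first (-0.98) or the second (-0.72) E16 array or the second (-1.03) or the third (-0.70) PN1 array.

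Partner and regulator genes were not all lower in PN1. Of 8 tested haem synthesis and turnover genes 2 were higher and 0 lower, Alas1, the rate-limiting enzyme outside red cells, by 1.79 ± 0.54 and the haem oxygenase Hmox1 by 2.40 ± 0.66. No electron partner was called among 5 tested (limma, Cyb5r3 at -0.71 ± 0.37). Among 13 regulators 1 was higher and 4 lower, with Nr1h4, undetected in PN1, at least 4.82-fold lower, and Hnf4a at 7.87 in E16 and 7.60 in PN1 (-0.27 ± 0.34, not called).

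The third question was how the day 28 cultures stand beside hepatocytes. Against E16, 14 members were lower and 4 higher, where 15.4% of all tested genes were lower and 19.6% higher. The median member was at -0.60 and the median of all genes at 0.08, or 0.51 with arrays scaled to a common median. Against PN1, 10 members were lower and 5 higher, where 19.6% of all genes were lower and 25.1% higher. The median member was at -0.14 and that of all genes at 0.14, or 0.79 with median scaling. The 10 tested members that had entered through hepatocyte arrays were almost bound to be lower in culture than in a preparation that detected them. The counts of lower members therefore describe those members and not the family. These comparisons share the day 28 arrays with each other and the hepatocyte arrays with the comparison of PN1 and E16.

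Of the 14 members lower than in E16, 9 were undetected on all 6 day 28 arrays. Their bounds were at least 23.4-fold for Cyp2c70, 14.3-fold for Cyp2d26, 9.49-fold for Cyp3a11, 8.61-fold for Cyp2d10, 6.19-fold for Cyp2c23, 4.17-fold for Cyp2a12, 3-fold for Cyp2a5, 2.71-fold for Cyp2c65 and 1.75-fold for Cyp8b1. These 9 enzymes thus had only bounds in culture. The other 5 were Cyp3a13 (-3.86), Cyp27a1 (-3.41), Cyp4f18 (-3.33), Cyp4v3 (-3.26) and Cyp4f16 (-1.47). Cyp4f16 was under 2-fold with median scaling (-0.65, not passing), without background correction (-0.90) and on the series matrix (-0.93), as was Cyp8b1 under these last settings (-0.70 and -0.85). The day 28 values of Cyp27a1 ran from 5.23 to 7.56 (median 5.67, 3 of 6 detected), and those of Cyp3a13 from 5.05 to 6.53 (3 of 6 detected), all below every E16 value.

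The 4 members higher than in E16 were among the 6 that had risen in culture by day 28. Cyp2d22 exceeded E16 by 2.31 ± 0.31 (adjusted p = 2.7e-07) and PN1 by at least 8.47-fold, with every day 28 value above every hepatocyte value. Cyp7b1 was at least 17.1-fold above E16 and at least 11.3-fold above PN1. Cyp2f2 has been given above. Cyp2s1 exceeded E16 by 1.51 (adjusted p = 0.000919), or by 0.94 without the third E16 array and 0.92 without background correction, and PN1 by at least 2.32-fold. Cyp51 was higher than in PN1 by 1.73 ± 0.23 (adjusted p = 2.24e-07) and gave -0.60 ± 0.23 against E16.

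Against PN1, lower members included Cyp4f18 (-5.83), Cyp8b1 (at least 3.99-fold), Cyp2c65 (at least 3.13-fold) and Cyp4a14 (at least 2.65-fold). These calls held with median scaling and without background correction. Cyp4v3 (-1.93) and Cyp27a1 (-1.70, with overlapping values) were called too and fell under 2-fold with median scaling, at -0.59 and -0.37. Cyp2d10 was called at least 2.6-fold lower, but was under 2-fold with median scaling (-0.98) and without background correction (-0.96). Cyp2c23 and Cyp2d26 were called though undetected on both sides, and Cyp4b1 was detected on 1 of the 9 arrays, so these 3 are given no fold. Cyp2c23 was under 2-fold (-0.76 to -0.98) without any one of several arrays, namely the second of ES, the first of GPSC-A or the first of GPSC-B at day 28, or the second of PN1.

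Around the P450 genes, electron partners were higher in day 28 cultures than in E16 for 3 of 5 tested genes, among them Cyb5r3, a cytochrome b5 reductase, by 1.89 ± 0.32. Haem synthesis and turnover genes were lower for 6 of 8, among them Alas1 at -1.10 ± 0.46 and Hmox1 at -3.28 ± 0.58. Of 13 regulators 2 were higher and 6 lower than in E16, with Hnf4a at -2.16 ± 0.29, Nr1h4 at -2.85 ± 0.19 and Ppara, undetected at day 28, at least 1.59-fold lower. The 8 hepatocyte markers were all lower, and the summed signals of erythroid (192 to 221), neutrophil granule (7657 to 18668) and macrophage markers (321 to 13243) at day 28 lay below the E16 ranges given above. The part of these cell types in the P450 differences was not tested.

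**Figure D4:**
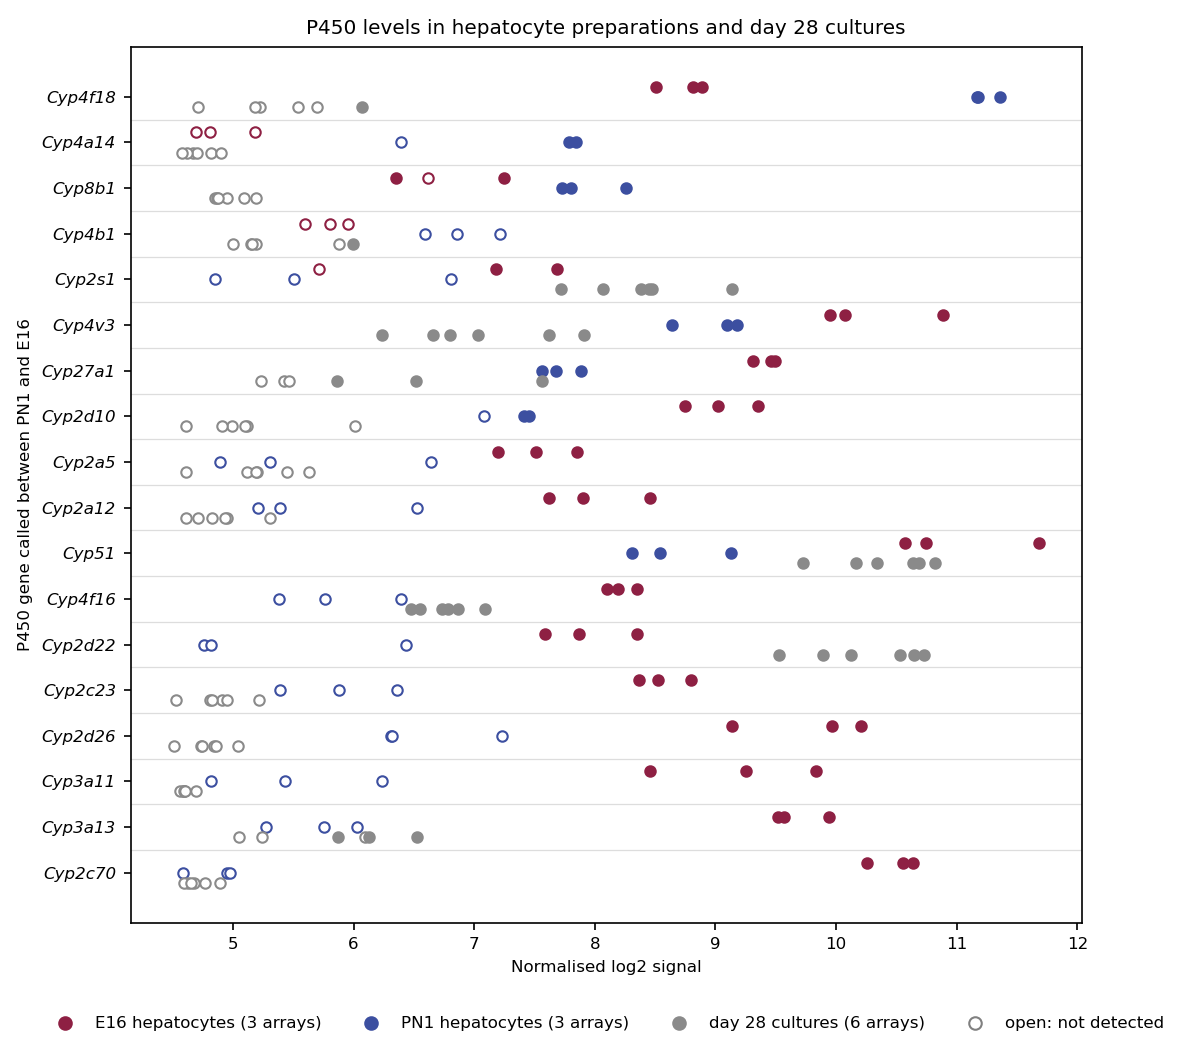
Normalised log2 signal of the 18 P450 genes called between PN1 and E16 hepatocytes, on each E16 (3), PN1 (3) and day 28 culture array (6, all lines), with open symbols where the probe was not detected. Cyp2a12, Cyp2a5, Cyp2c23, Cyp2c70, Cyp2d26 and Cyp3a11 are filled on every E16 array and open on every PN1 and culture array, while Cyp4f18, Cyp4a14 and Cyp8b1 are highest in PN1 and Cyp2d22 and Cyp2s1 highest in culture.

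Of the 29 tested members, 26 were called in at least 1 of the 8 comparisons of levels. The 3 never called were Cyp11b2, which encodes aldosterone synthase and was detected on 9 scattered arrays, and 2 Cyp4f genes. Of these, Cyp4f39 was detected on 3 arrays and Cyp4f40 on 2.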

How the data were processed

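Total RNA of 42 mouse samples was measured on Illumina bead arrays, 1 array per sample, in 20 groups taken from the labels. Extraction was by miRNeasy kit and labelling by biotinylated cRNA, per the labels' protocols. The submitters' processing notes name GenomeStudio, without its version. The authors' deposited scanner table holds a signal intensity per probe and array, which per the file headers had not been normalised. It also holds the deposited detection p-value of each probe against the negative controls of its array. A deposited series matrix with the authors' processed intensity values (column medians 133.31 to 133.34, method not given in the sources used here) put the probes of an array in the same order and served as an alternative.

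Of the 45281 probes, 34885 had 1 gene symbol in the platform annotation, 18 several and 10378 none, and the last 2 kinds were not named. All 82 member symbols matched RefSeq. Signals were background corrected by normexp, which read the detection p-values, then quantile normalised and put on the log2 scale after adding an offset of 16 (neqc, limma 3.58.1, R 4.3.3). A gene was represented by the probe with the highest mean and tested when that probe was detected at p under 0.01 on at least 2 arrays. One model with the 20 groups and 22 residual degrees of freedom (lmFit and eBayes) gave all differences, with Benjamini-Hochberg adjustment. A lower bound sets the mean of the detected group against a floor on each array of the other, which is the dimmest detected signal there or the value of the probe if that is higher. Plots were made in Python 3.11.15 and matplotlib 3.10.9.

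Replicate arrays correlated at 0.950 to 0.982 across genes. Deviations from group means of same-numbered arrays correlated within each line (0.247 to 0.381 in ES, 0.440 to 0.645 in GPSC-A and 0.327 to 0.592 in GPSC-B, 15 pairs of days each), so replicate numbers were taken as pairing arrays within a line, and a block was tried. E16 and PN1 gave 0.0069 to 0.0813. On simulated data for PN1 minus E16 (10825 genes), 71 of 100 genes changed by 1.5 on the log2 scale and 98 of 100 changed by 3 were recovered, with 9 false calls. The number of arrays limits the precision.

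Members, marker lists and pathway lists were chosen with earlier results of these data known. By rule, members called in any comparison were described with their values and the others accounted for by name or count. Of the pathway lists only counts and a fixed set of genes were to be named. Rdh11, Rarg, Nsdhl, Hsd17b7, Tspo, Vdr, Hmox1, Acox2, Slc27a5 and Hsd3b7 were picked beyond that set after their values had been seen. Alternatives were another scaling, no background correction, the series matrix, another offset, other detection filters, averaged probes, fits on the compared groups, a replicate block, no fold threshold and leaving out each array.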

Additional observations from a re-analysis of the deposited data

Results flagged for a closer look

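The change of Cyp26a1 from day 0 to day 14 differed between lines. It was 2.46 ± 0.56 higher in GPSC-A than in ES on the log2 scale (limma, adjusted p = 0.0116), with both GPSC-A arrays of day 14 (9.96 and 9.50) above both ES arrays (6.64 and 6.92). The comparison was added after the values had been seen, as 1 of 12 added line comparisons. Without the first ES array of day 0 the difference was 1.90 (adjusted p = 0.121), without the second GPSC-A array of day 0 it was 2.04 (adjusted p = 0.112), and without the first GPSC-A array of day 14 it was 2.23 (adjusted p = 0.0951). Over all alternatives it ran from 1.86 to 3.20. It gave an adjusted p of 0.0503 with median scaling (2.98), 0.155 in a fit on the compared groups and 0.00509 with the replicate block.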

How the results depend on the processing

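Counts of called members moved by more than 1.5 times as follows. Members higher in PN1 than in E16 went from 4 to 2 with median scaling, no background correction, the series matrix, an offset of 50 or detection on at least 4 arrays. Detection on at least 4 arrays took the 14 lower members of PN1 minus E16 and of day 28 minus E16 to 9 each. Members lower at day 28 than in PN1 went from 10 to 4 with median scaling and to 6 without background correction. In culture, day 7 rises went from 3 to 1 on the matrix and day 7 falls from 1 to 0 on the matrix and without background correction. Both of these took day 14 rises from 5 to 2 and day 14 falls and day 21 falls from 2 to 0. Day 28 falls went from 2 to 0 without background correction and to 1 on the matrix. An offset of 50 and averaged probes left 1 fall at days 14, 21 and 28. Without a fold threshold there were 3 rises at day 2, 5 rises and 2 falls at day 7 and 8 rises at day 14. The replicate block took GPSC-A minus ES at day 28 from 0 to 1 (Cyp2d10) and changed no other call of a member. Leaving out 1 array gave 0 to 1 rises at day 2, 2 to 3 rises and 1 to 2 falls at day 7, 4 to 5 rises at day 14, 5 to 6 rises at day 21, 3 to 4 higher and 13 to 15 lower for PN1 minus E16, 3 to 4 higher for day 28 minus E16, 5 to 6 higher and 9 to 11 lower for day 28 minus PN1, and 0 to 1 for GPSC-A minus ES at day 28 (Cyp3a13). Of 1512 values of called members under alternatives, 1412 kept their direction and side of the threshold, 100 lost the call and 0 reversed. Median scaling moved the higher and lower calls over all genes from 1122 and 1465 to 390 and 1521 for PN1 minus E16, from 2124 and 1672 to 3456 and 895 for day 28 minus E16, from 2719 and 2124 to 4729 and 806 for day 28 minus PN1, from 1363 and 1171 to 1699 and 934 at day 14, and from 162 and 426 to 77 and 491 at day 2. With no detection filter Cyp7a1 (lower) and Cyp2e1 (higher) were also called for PN1 minus E16. Where a change was lost, the cause was not tested. Signal over background limits most members: 53 of 82 were not tested.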

Other observations

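Several members with a single detected array are well known in liver. Cyp2e1, which oxidises ethanol and rises in rodent liver after birth, was detected on the third PN1 array alone at 7.49, with the other PN1 arrays at 5.69 and 5.56 and the E16 arrays at 4.98, 5.05 and 5.17. Cyp7a1, the rate-limiting enzyme of classic bile acid synthesis, was detected on the third E16 array at 6.71, with the other E16 arrays at 6.39 and 5.93 and the PN1 arrays at 5.12, 5.30 and 4.85. Cyp2b10, a drug-inducible enzyme, was detected on the second ES array of day 7 at 6.65. Values of arrays that do not detect a probe carry no order.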
